A study of Mus musculus with 14 samples.

Results

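The germinal center transcription factors described here are 10 genes, Bcl6, Bach2, Mef2b, Mef2c, Spib, Pou2af1, Ebf1, Pax5, Irf8 and Mybl1, chosen by name. All 10 had a row in both count tables, out of 41053 gene rows. RNA-seq libraries, 14 in all, came from spleens of C57BL/6 mice. From germinal center (GC) B cells there were 4 libraries of Tet2 knock-out genotype (KO, replicates 2 to 5) and, as wild type (WT), replicates 1, 3 and 4. From lymphoma B cells there were 2 libraries with a hairpin against Tet2 (shTet2, labelled as knock-down, replicates 1 and 2) and 5 control libraries labelled Tet2 wild-type (replicates 1 to 5). TET2 oxidises methylated cytosine in DNA, and the study asked how its loss changes gene expression in these cells. The part of Tet2 deleted, the promoter behind any Cre, the way GC cells were purified, the origin of the lymphoma and the age of the mice are not stated in the labels. Nor do the labels tie replicates to separate mice, so each p-value reflects the spread among these libraries only, which may be technical.

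Germinal centers are the sites in spleen and lymph node where activated B cells divide, mutate their antibody genes and are selected. BCL6 is the repressor that keeps the germinal center program in place, and BACH2 represses the gene for BLIMP1, the factor that drives plasma cell formation. MEF2B and MEF2C are MADS-box activators, and human MEF2B activates BCL6. SPIB and IRF8 act in B cells as ETS and interferon regulatory factor proteins that can bind DNA together, while POU2AF1 is a coactivator that octamer-binding proteins recruit. EBF1 and PAX5 commit and hold cells to the B lineage, and MYBL1 is a MYB family activator abundant in GC B cells.

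Total counts were 29487244 to 30330950 in KO, 27191862 to 30434184 in WT, 9386084 to 14741588 in shTet2 and 6691167 to 18598386 in control lymphoma libraries. Ribosomal and other structural RNA rows took 0.669% to 0.957% of KO, 0.35% to 1.22% of WT, 42.6% to 51.2% of shTet2 and 54% to 74.2% of control lymphoma counts. Levels are given as CPM, which are counts divided by the library size after TMM scaling. With the scale used 1 count was worth 0.0208 to 0.0239 CPM in a GC library and 0.0809 to 0.373 CPM in a lymphoma library. Tet2 itself had 7.65, 9.39, 8.55 and 9.31 CPM in KO libraries, against 8.66, 7.63 and 9.18 CPM in WT libraries. That row sums all exons, so it does not check a deletion whose extent is unknown. Tet2 had 85.2 and 78.6 CPM in shTet2 libraries, against 89.1 to 105 CPM in control lymphoma libraries (log2 difference -0.21, SE 0.10, edgeR adjusted p = 0.295).

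The 3 B-cell markers Cd79a, Cd79b and Ms4a1 summed to 2860 to 3260 CPM in KO, 3090 to 3230 in WT, 1850 to 2300 in shTet2 and 2130 to 2440 in control lymphoma libraries. The 5 GC markers Fas, S1pr2, Gcsam, Rgs13 and Nuggc summed to 1020 to 1160 CPM in KO and 961 to 1170 in WT libraries. They summed to 67.9 to 89.2 CPM in shTet2 and 10.1 to 29.7 CPM in control lymphoma libraries, so the lymphoma libraries carried B-cell markers with little of the GC markers. The 2 shTet2 libraries stood apart from each other in several members and in some myeloid markers. Values of Bcl6, Bach2, Ebf1, Pax5, Irf8 and Mybl1 are therefore given one by one. For most other genes a mean and SD of the 2 libraries is given, which can hide a split between them. Since these are bulk samples, fewer cells of a type and less RNA per cell cannot be told apart.

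The stretch of 250 bases before the RefSeq transcription start is shown for 5 members, since these had an unadjusted p under 0.05 in a Tet2 comparison below. Mybl1 met that rule too, and is named only. The capitals mark CpG, the dinucleotide in which TET2 acts on methylated cytosine. Sequences are from RefSeq on GRCm38.p6, written 5′ to 3′ in the direction of transcription.
Bach2: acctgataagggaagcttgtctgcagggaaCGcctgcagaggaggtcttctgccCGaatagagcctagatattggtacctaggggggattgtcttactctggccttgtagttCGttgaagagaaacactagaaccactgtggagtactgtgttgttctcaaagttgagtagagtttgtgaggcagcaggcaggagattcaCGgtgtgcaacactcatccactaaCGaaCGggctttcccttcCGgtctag
Ebf1: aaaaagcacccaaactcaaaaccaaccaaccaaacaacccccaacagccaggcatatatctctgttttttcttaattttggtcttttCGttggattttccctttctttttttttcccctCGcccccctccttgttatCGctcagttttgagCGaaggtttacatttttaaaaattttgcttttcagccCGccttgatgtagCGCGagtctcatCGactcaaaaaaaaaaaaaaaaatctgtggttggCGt
Pax5: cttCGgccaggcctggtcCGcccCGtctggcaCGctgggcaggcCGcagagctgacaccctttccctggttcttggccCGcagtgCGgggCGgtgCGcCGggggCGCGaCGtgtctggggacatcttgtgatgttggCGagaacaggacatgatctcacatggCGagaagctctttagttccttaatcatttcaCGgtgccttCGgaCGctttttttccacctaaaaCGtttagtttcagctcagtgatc
Spib: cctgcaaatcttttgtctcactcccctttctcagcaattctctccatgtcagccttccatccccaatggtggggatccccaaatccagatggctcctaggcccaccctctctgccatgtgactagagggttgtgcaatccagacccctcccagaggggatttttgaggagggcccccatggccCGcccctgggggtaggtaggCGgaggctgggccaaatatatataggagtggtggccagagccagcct
Irf8: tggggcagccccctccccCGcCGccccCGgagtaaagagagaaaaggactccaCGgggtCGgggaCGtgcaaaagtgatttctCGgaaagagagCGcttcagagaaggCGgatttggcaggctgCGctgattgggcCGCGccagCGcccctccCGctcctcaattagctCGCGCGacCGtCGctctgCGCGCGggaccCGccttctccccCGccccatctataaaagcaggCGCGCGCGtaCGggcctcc
These lie at chr4:32417185-32417434 on the plus strand for Bach2, chr11:44617850-44618099 on the plus strand for Ebf1, chr4:44710695-44710944 on the minus strand for Pax5, chr7:44532072-44532321 on the minus strand for Spib and chr8:120736108-120736357 on the plus strand for Irf8. The Bach2 and Ebf1 windows shown lie inside the counted spans of their genes, and Ebf1 and Irf8 each have a second RefSeq start. Sequences of 9 of the 10 members were matched.

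The members' promoters ranged widely in CpG content, from 1 CpG in the first of 3 Mef2c windows to 29 in the first Irf8 window. Over 32851 RefSeq promoter windows of the same length the median was 6 CpG, with quartiles at 2 and 16. The Irf8 count was above that of 93.2% of windows and the Mef2c count above that of 7.87%. The first Bcl6 window held 21 CpG. Pax5 held 19, Ebf1 9 and 14 at its 2 starts, Bach2 7, Pou2af1 5 and Spib 2. No methylation was measured, so these counts describe the sequence only. Several motifs were searched on both strands, of which only the octamer ATGCAAAT is described. It was found in the Mef2b window alone among the members, from 85 to 78 bases before the start, and in 1.6% of all windows.

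The Mef2b row cannot give the level of Mef2b. It held 2, 2, 1 and 0 counts in KO libraries, 1, 3 and 3 in WT libraries, 2 and 2 in shTet2 libraries and 2, 0, 0, 0 and 3 in control lymphoma libraries. Of its 1342 counted exon bases (GRCm38 chromosome 8, 70152778 to 70167488), 1275 (95%) also belong to the row 2310045N01Rik on the same strand, and 67 are its own. The command in the file headers has no option to count reads that overlap 2 genes, so reads on the shared bases enter neither row. The counts of 2310045N01Rik therefore come from the 1468 exon bases of its own and do not stand for Mef2b. That row averaged 42.5 ± 1.99 CPM in KO and 45.2 ± 5.58 CPM in WT libraries. It averaged 17.5 ± 1.23 CPM in shTet2 and 15.6 ± 1.26 CPM in control lymphoma libraries (SD, n = 4, 3, 2 and 5). Mef2b did not pass the filter on low counts in any comparison, and 9 of the 10 members were tested throughout.

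**Figure D1:**
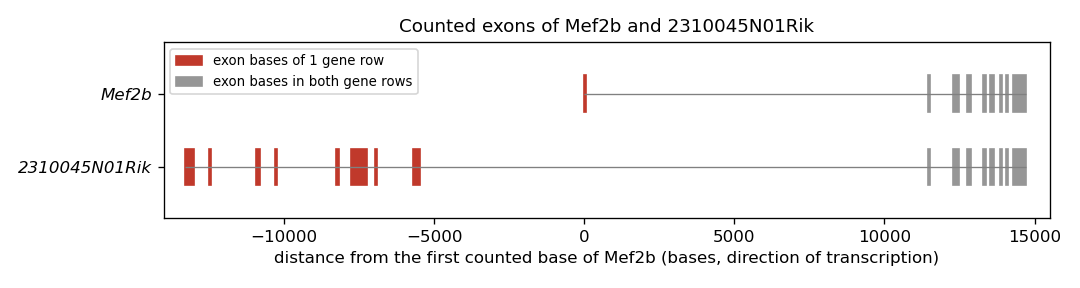
Counted exons of Mef2b and of the row 2310045N01Rik, by distance in bases from the first counted base of Mef2b. Red blocks belong to 1 row and grey blocks to both: only the first Mef2b exon, of 67 bases, is its own.

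On GRCm38, as the count tables place them, the other members lie on chromosome 16 from 23965052 to 23988852 (Bcl6), chromosome 4 from 32238804 to 32586108 (Bach2) and from 44531145 to 44710487 (Pax5), chromosome 13 from 83504034 to 83667079 (Mef2c) and chromosome 7 from 44525995 to 44532071 (Spib). Pou2af1 lies on chromosome 9 from 51213690 to 51240079, Ebf1 on chromosome 11 from 44617317 to 45008091, Irf8 on chromosome 8 from 120736358 to 120756694 and Mybl1 on chromosome 1 from 9667415 to 9700209. The counting did not use strand, although the library kit keeps it. Bach2 shares 537 of 9940 exon bases with Bach2os and Pax5 shares 125 of 2465 with Gm12462, both on the opposite strand, so their reads cannot be told apart there. The other 7 tested members share no exon base with another row.

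Levels between genes were compared per kilobase of counted exon. Pou2af1, the octamer coactivator, stood first in every group, at 525 ± 20.3 CPM per kb in KO, 525 ± 45.1 in WT, 178 ± 6.56 in shTet2 and 164 ± 8.89 in control lymphoma libraries (SD, n = 4, 3, 2 and 5). Spib came next in every group, at 226 CPM per kb in KO, 270 in WT, 129 in shTet2 and 143 in control lymphoma libraries. In KO cells the order went on with Pax5 (94.1), Irf8 (68.8), Bcl6 (41.2), Mef2c (40.3), Bach2 (27), Mybl1 (25.9) and Ebf1 (8.34 CPM per kb). Ebf1 was thus the lowest of the 9 in KO cells, as it was in WT cells at 8.8 CPM per kb. In control lymphoma cells the order after Spib was Pax5 (110), Mef2c (65.8), Irf8 (46.5), Ebf1 (44.8), Bach2 (35.3), Bcl6 (26.1) and Mybl1 (1.88 CPM per kb). Neighbours whose library ranges overlapped were Bcl6 and Mef2c, and Bach2 and Mybl1, in KO cells, and those same pairs as well as Irf8 and Pax5 in WT cells. In lymphoma cells they were Mef2c and Irf8, Ebf1 and Bcl6, and Bcl6 and Bach2 in shTet2 libraries, and Irf8 and Ebf1, and Ebf1 and Bach2, in control libraries.

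**Figure D2:**
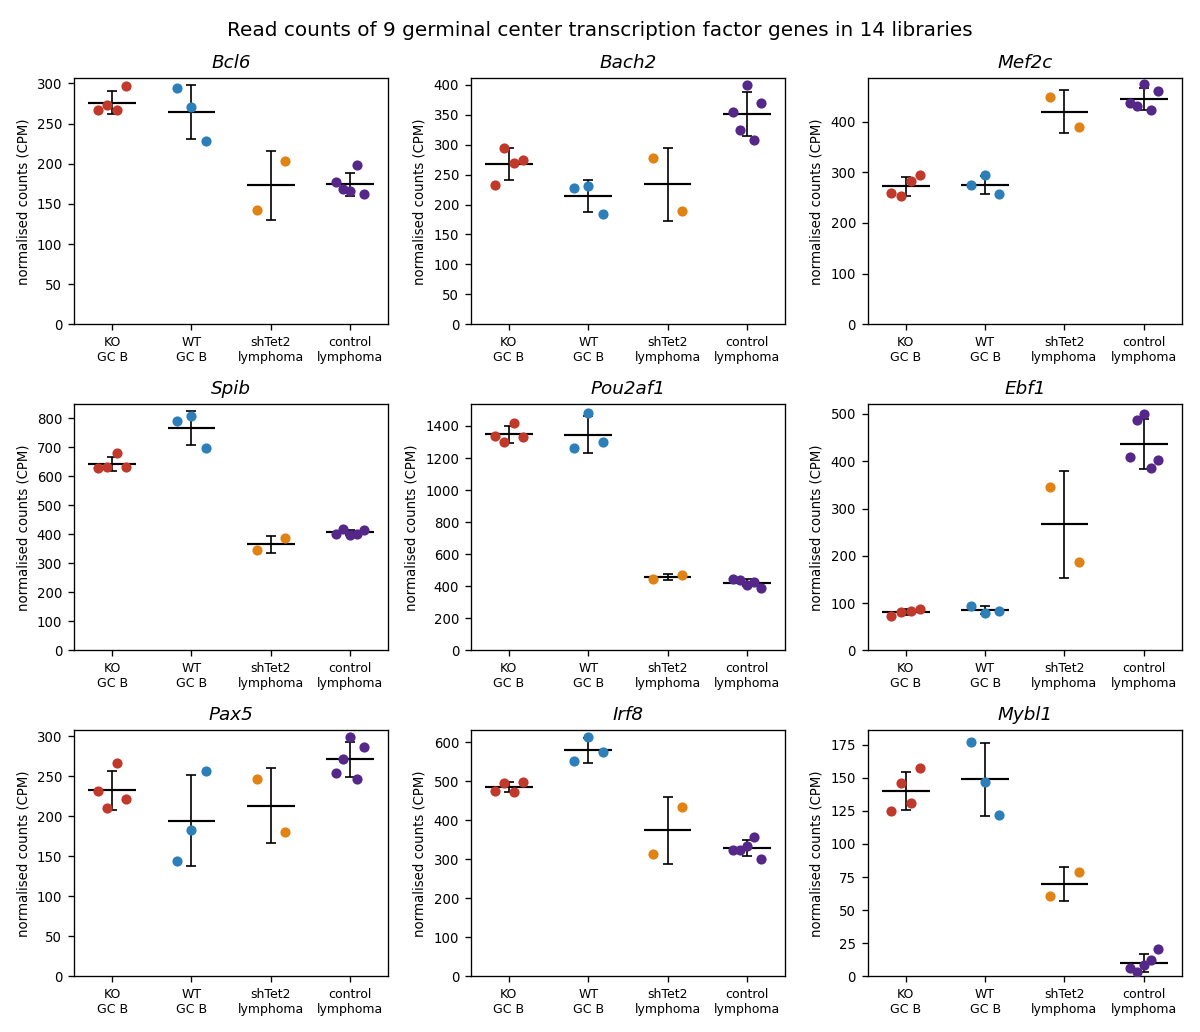
Normalised read counts (CPM, linear axes from 0) of the 9 tested members in the 14 libraries; each point is 1 library, the wide bar the group mean and the error bar the SD. Mybl1 ranged from 60.5 to 78.9 CPM in shTet2 libraries and from 3.36 to 20.5 CPM in control lymphoma libraries, while Bcl6 overlapped between KO and WT and between shTet2 and control.

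The first comparison set KO against WT GC B cells. None of the 9 tested members passed an edgeR adjusted p under 0.05, in a comparison that called 883 of 13600 genes tested (6.49%; 1.92% higher and 4.57% lower in KO). Bcl6, the master repressor, averaged 276 ± 14.3 CPM in KO and 265 ± 33.3 CPM in WT libraries (SD, n = 4 and 3), a log2 difference of 0.06 with a 95% interval from -0.14 to 0.26. Pou2af1 (interval -0.18 to 0.19) and Mef2c (-0.20 to 0.17) likewise had intervals that span no difference. At an unadjusted p under 0.05 there were 3 members, Bach2, Irf8 and Spib, against 19.9% of all genes. The median log2 difference over the members was -0.01, against 0.01 over all genes tested.

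Bach2 had 232, 295, 270 and 274 CPM in KO libraries, against 227, 231 and 184 CPM in WT libraries. Every KO library was above every WT library, though KO replicate 2 and WT replicate 3 were 232 and 231 CPM, and 7.65% of all genes were likewise higher without overlap. The log2 difference was 0.33 (SE 0.10, 1.25-fold), with an edgeR adjusted p of 0.0741. Irf8 had 476, 496, 472 and 498 CPM in KO libraries, against 551, 614 and 574 CPM in WT libraries. All KO values of this interferon regulatory factor lay below the WT values, with a log2 difference of -0.26 (SE 0.08, edgeR adjusted p = 0.0684). Spib, the ETS factor, had 629, 632, 680 and 632 CPM in KO libraries, against 790, 808 and 699 CPM in WT libraries. These groups did not overlap either, as in 10.6% of all genes on the lower side, and the log2 difference was -0.25 (SE 0.08, edgeR adjusted p = 0.0892).

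Pax5, the B-lineage factor, had 231, 210, 266 and 222 CPM in KO libraries, against 144, 183 and 256 CPM in WT libraries. Its groups overlapped through WT replicate 4, the highest of the WT libraries (log2 difference 0.26, SE 0.17, edgeR adjusted p = 0.476). Ebf1 (73.2 to 87.8 CPM in KO, 79.5 to 94.6 CPM in WT libraries) and Mybl1 (125 to 157 CPM in KO, 122 to 177 CPM in WT libraries) also overlapped between groups. DESeq2 called Bach2, Spib and Irf8 (adjusted p = 0.0367, 0.0335 and 0.0175) among 1266 of 13600 genes. The limma-voom fit called 823 genes and no member. Without KO replicate 2 Bach2 was called (0.39, edgeR adjusted p = 0.0251), as were 944 of 13442 genes. Without WT replicate 4 Pax5 was called (0.50, edgeR adjusted p = 0.0286), as were 721 of 13872 genes.

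The 18 myeloid markers, of which macrophages and dendritic cells hold most, summed to 23.2 to 25.8 CPM in KO and 45.2 to 66.9 CPM in WT libraries, with Mpo at 0 counts in WT libraries. Of the 12 that were tested 9 fell in KO libraries and none rose, among them Itgax (-2.66 on the log2 scale, edgeR adjusted p = 0.000112). The 6 plasmacytoid dendritic cell markers summed to 110 to 130 CPM in KO and 122 to 139 CPM in WT libraries. Most of that sum was Tcf4, which B cells also express (107 ± 9.32 CPM in KO and 115 ± 11.6 CPM in WT libraries; SD, n = 4 and 3), while the narrower marker Siglech averaged 0.398 CPM in KO and 0.335 CPM in WT libraries. The 9 T-cell markers summed to 79.5 to 94.9 CPM in KO and 110 to 138 CPM in WT libraries, and most of that sum was Lck, a kinase, at 85.7 ± 7.2 CPM in KO and 125 ± 15.6 CPM in WT libraries. Of the 6 that were tested Lck fell (-0.54, edgeR adjusted p = 0.00308) and Thy1 rose (2.51, edgeR adjusted p = 0.000351), and Cd3e, a subunit of the T-cell receptor complex, was near 0 in both groups (0.0654 CPM in KO and 0.0702 CPM in WT libraries), so the T-cell markers did not move one way. Irf8 is also a gene of myeloid cells, and the part of these cells in its difference was not tested.

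The share of genes around the members that was called in KO cells varied by list, beside 6.49% of all genes tested. It was 21.4% of other B-cell transcription factors, 15.4% of GC marker genes and 9.52% of corepressor genes. Among PAX5 or EBF1 targets it was 9.52%, among paralogs 6.25% and among plasma cell genes 0%. Of 22 genes that BCL6 is known to repress, 5 fell and none rose (22.7% called), with a median log2 difference of -0.17 against 0.01 over all genes. Cxcl10, a chemokine, fell to 0.595 ± 0.152 CPM in KO libraries, against 3.42 ± 0.0653 CPM in WT libraries (SD, n = 4 and 3). Cd80, a costimulatory ligand, fell to 1.82 ± 0.347 CPM in KO libraries, against 4.74 ± 0.14 CPM in WT libraries. S1pr1, a receptor for exit from lymphoid tissue, fell by 0.51 on the log2 scale (edgeR adjusted p = 0.00709). Both Cxcl10 and Cd80 are made by myeloid cells as well, and the part of these cells in the differences was not tested.

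Of 21 tested genes that PAX5 or EBF1 activate, 2 fell and none rose. They were Cd72, a B-cell surface receptor, at 200 ± 6.16 CPM in KO and 326 ± 14.3 CPM in WT libraries, and Cd55 (log2 difference -0.46). Among 21 tested corepressor genes, Hdac5 rose (0.40, edgeR adjusted p = 0.0112) and Bcor, which encodes a BCL6 corepressor, fell (-0.44, edgeR adjusted p = 0.0379). Of 28 other B-cell transcription factors 2 rose and 4 fell, with Lmo2 (-0.45), Zeb2 (-0.65) and Relb (-0.43) first by p. Of 16 tested paralogs of the members 1 fell, Irf2 (-0.32, edgeR adjusted p = 0.0307). Among 13 GC marker genes, Basp1 (-0.60) and again Lmo2 fell and none rose, and among 12 plasma cell genes none was called by edgeR (2 had an unadjusted p under 0.05). First by p among these was Igj, the joining chain of secreted antibodies (0.30, edgeR adjusted p = 0.215).

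The second comparison set shTet2 against control lymphoma B cells. Structural RNA shares did not overlap between these groups (42.6% to 51.2% in shTet2 and 54% to 74.2% in control libraries). Hairpin and structural RNA share therefore cannot be told apart here. Again none of the 9 tested members passed an edgeR adjusted p under 0.05, where 330 of 12797 genes tested did (2.58%; 1.84% higher and 0.742% lower in shTet2). Mybl1 had the largest difference of the 9, and Bach2, Ebf1, Pax5 and Spib were lower in both shTet2 libraries than in every control library, as 9.75% of all genes were. Of these, Mybl1, Bach2, Ebf1 and Pax5 had an unadjusted p under 0.05, against 19.1% of all genes. The median log2 difference over the members was -0.09, against 0 over all genes.

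Mybl1, the MYB family activator, had 748 and 759 counts (60.5 and 78.9 CPM) in shTet2 libraries. It had 33, 9, 91, 93 and 154 counts (6.45, 3.36, 8.28, 12.2 and 20.5 CPM) in control libraries. Both shTet2 libraries lay well above the highest control, as 11.5% of all genes were higher without overlap, and the log2 difference was 2.69 (SE 0.48, 6.44-fold, edgeR adjusted p = 0.0549). The GC marker sum given above was also higher in both shTet2 libraries, and Mki67, a protein of dividing cells, averaged 505 ± 141 CPM in shTet2 and 118 ± 46.8 CPM in control libraries (SD, n = 2 and 5; log2 difference 2.09, edgeR adjusted p = 0.0642). The part of dividing cells or of cells with GC markers in the Mybl1 difference was not tested.

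Bach2, the BLIMP1 gene's repressor, had 277 and 190 CPM in shTet2 libraries, against 354, 325, 399, 308 and 369 CPM in control libraries (log2 difference -0.59, SE 0.15, edgeR adjusted p = 0.064). Replicate 2 lay much further below the controls than replicate 1. Ebf1 had 346 and 187 CPM in shTet2 libraries, against 409, 488, 499, 386 and 402 CPM in control libraries (-0.71, SE 0.23, edgeR adjusted p = 0.145). Its replicate 2 was again the lower. Pax5 had 246 and 180 CPM in shTet2 libraries, against 254, 271, 299, 246 and 286 CPM in control libraries (-0.35, SE 0.13, edgeR adjusted p = 0.162). For Pax5 replicate 1 all but touched the lowest control.

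The other members showed smaller differences. Irf8 had 314 and 435 CPM in shTet2 libraries, against 301 to 358 CPM in control libraries, so that only replicate 2 lay above the controls. Bcl6 had 143 and 203 CPM in shTet2 libraries, against 162 to 198 CPM in control libraries, with 1 shTet2 library on either side of them (log2 difference -0.02, 95% interval -0.30 to 0.27). Spib averaged 366 ± 29 CPM in shTet2 and 407 ± 9.47 CPM in control libraries (SD, n = 2 and 5; -0.15, interval -0.34 to 0.04). Pou2af1 averaged 458 ± 16.8 CPM in shTet2 and 422 ± 22.8 CPM in control libraries (0.12, interval -0.08 to 0.31), with both shTet2 libraries just above the highest control. For Mef2c the interval was -0.29 to 0.12.

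**Figure D3:**
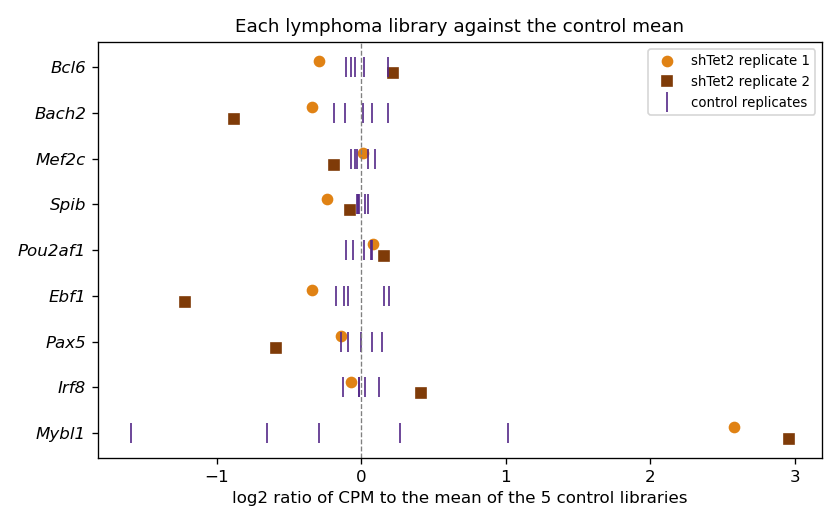
Log2 ratio of each lymphoma library to the mean of the 5 control libraries, for the 9 tested members; circles and squares are shTet2 replicates 1 and 2, ticks the controls. Mybl1 lies at 2.58 and 2.96, and for Bach2 (-0.34 and -0.88), Ebf1 (-0.34 and -1.22) and Pax5 (-0.14 and -0.59) replicate 2 is further from the controls.

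The estimates moved with the library left out. Without shTet2 replicate 1 the log2 differences were -0.89 for Bach2, -1.23 for Ebf1, -0.60 for Pax5, 0.40 for Irf8 and 2.85 for Mybl1. Without shTet2 replicate 2 they were -0.34 for both Bach2 and Ebf1, -0.14 for Pax5, -0.07 for Irf8 and 2.47 for Mybl1. In each of these fits the lone shTet2 library was assumed to vary as the controls do, so only the differences are given. Without control replicate 5, Mybl1 was called (3.09, edgeR adjusted p = 0.00932), as were 264 of 12355 genes tested. The 18 myeloid markers summed to 85.2 CPM in shTet2 replicate 1 and 241 CPM in replicate 2, against 78.9 to 134 CPM in control libraries, where Mpo was at 0. Much of that gap was Itgam, which ran from 10.9 to 83.2 CPM over the shTet2 libraries, while Lyz2 ran from 9.62 to 14.2 CPM. None of 13 tested myeloid markers was called by edgeR between shTet2 and control cells, with 3 at an unadjusted p under 0.05. The part of the myeloid cells in the distance of replicate 2 was not tested. The plasmacytoid dendritic cell markers summed to 204 and 330 CPM in shTet2 libraries, against 221 to 242 CPM in control libraries, and most of that was Tcf4 (184 and 300 CPM in shTet2 libraries, 199 to 211 CPM in control libraries). Siglech, a narrower marker of these cells, had 4.26 to 4.53 CPM in shTet2 and 1.64 to 5.60 CPM in control libraries. In the full set DESeq2 called Bach2, Ebf1 and Mybl1 among 593 of 12797 genes, and limma-voom called Mybl1 among 289.

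Among the genes around the members, some did pass in shTet2 cells. Of 17 tested paralogs, 1 rose: Mybl2, a relative of Mybl1 active in dividing cells, at 8.55 ± 3.05 CPM in shTet2 and 2.83 ± 0.742 CPM in control libraries (SD, n = 2 and 5; edgeR adjusted p = 0.0175). Of 22 genes that BCL6 represses, 2 rose and none fell: Prdm1, which encodes BLIMP1, at 18.1 ± 7.58 CPM in shTet2 and 7.63 ± 1.95 CPM in control libraries, and Chek1, a cell cycle checkpoint kinase (1.26 on the log2 scale). Xbp1, which with Prdm1 made 2 of 11 tested plasma cell genes that rose, reached 110 ± 8.09 CPM in shTet2 and 62.1 ± 8.7 CPM in control libraries. Among 13 GC marker genes Fas (1.29), Neil1 (0.73) and S1pr2 (2.73) rose and none fell.

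Of 28 other B-cell transcription factors, 4 fell and none rose, and the first 3 by p were Klf6, Rel and Runx3. Klf6 averaged 223 ± 64.6 CPM in shTet2 and 381 ± 19.7 CPM in control libraries, and Rel, a subunit of NF-kappaB, 84.5 ± 21 CPM in shTet2 and 142 ± 11.5 CPM in control libraries (SD, n = 2 and 5). None of 21 tested targets of PAX5 and EBF1 was called by edgeR, with 8 at an unadjusted p under 0.05. Cd79a, part of the B-cell receptor, came first at 294 ± 68.6 CPM in shTet2 and 412 ± 31.6 CPM in control libraries (edgeR adjusted p = 0.0738). None of 22 corepressor genes was called by edgeR, with 6 at an unadjusted p under 0.05 and Hdac3 first (0.44, edgeR adjusted p = 0.0796).

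In the shTet2 effect, as above, hairpin and structural RNA share cannot be told apart. A model of all 4 groups tested whether that effect differed from the KO effect. It called 2 of the 9 members, Bach2 and Mybl1, and 771 of 15441 genes (4.99%; 3.39% with a higher and 1.61% with a lower effect in lymphoma cells). Bach2 was higher in KO than in WT libraries and lower in shTet2 than in control libraries, and its log2 effect differed by -0.94 (SE 0.19, edgeR adjusted p = 0.00618). For Mybl1 the effect differed by 2.73 (SE 0.45, edgeR adjusted p = 0.00599), with 140 ± 14.5 CPM in KO and 149 ± 27.7 CPM in WT libraries beside the shTet2 difference (SD, n = 4 and 3). Ebf1 (-0.66), Pax5 (-0.64) and Irf8 (0.41) did not pass, with edgeR adjusted p of 0.109, 0.131 and 0.116. Without shTet2 replicate 2 the effects differed by -0.73 for Bach2 and 2.48 for Mybl1, and neither passed. Without shTet2 replicate 1 they differed by -1.18 for Ebf1, -0.89 for Pax5 and 0.63 for Irf8. Each of these fits rests on 1 shTet2 library. Without WT replicate 4, Pax5 was called beside Bach2 and Mybl1 (-0.88, edgeR adjusted p = 0.0127), in a fit that called 657 of 14833 genes.

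Other genes whose effects differed included Mybl2 (1.58), Irf7 (-0.87) and Mef2d (-0.67) among 18 tested paralogs. Of 28 other B-cell factors 1 had a higher and 6 a lower effect in lymphoma cells, with Klf6 (-1.12), Runx3 (-0.84) and Nr4a1 (-1.13) first by p. Of 22 BCL6-repressed genes 4 had a higher effect and none a lower one, among them Cxcl10 (2.66), Prdm1 (1.60) and Chek1 (1.01). Of 16 tested myeloid markers 5 had a higher effect in lymphoma cells as well and none a lower one, with a median of 1.25 against -0.01 over all genes, and their part in the effects of the BCL6-repressed genes was not tested. Of 13 GC marker genes 6 had a higher effect in lymphoma cells and none a lower one.

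The last comparison set control lymphoma cells against WT GC B cells, neither of which carries a Tet2 lesion by its labels. All 9 tested members passed, 4 higher and 5 lower in lymphoma cells, where 80.7% of 15441 genes passed (40.2% higher and 40.4% lower), so a call is no distinction here. Cell state, library batch, count table and structural RNA share cannot be told apart in it. Ebf1 averaged 437 ± 52.5 CPM in control lymphoma and 85.8 ± 7.82 CPM in WT GC libraries (SD, n = 5 and 3), a log2 difference of 2.37 (SE 0.16, 5.17-fold). The other 3 higher members were Bach2 (351 ± 35.8 CPM in control lymphoma, 214 ± 26.2 CPM in WT GC libraries), Mef2c (445 ± 21.6 CPM in control lymphoma, 275 ± 18.3 CPM in WT GC libraries) and Pax5. Pax5 had 246 to 299 CPM in control lymphoma and 144 to 256 CPM in WT GC libraries, and it alone among the 9 overlapped between groups, where 74.5% of all genes did not overlap (35.5% higher and 39% lower).

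Mybl1 averaged 10.1 ± 6.6 CPM in control lymphoma and 149 ± 27.7 CPM in WT GC libraries (SD, n = 5 and 3), a log2 difference of -3.74 (SE 0.32, 13.3-fold). Pou2af1 averaged 422 ± 22.8 CPM in control lymphoma and 1350 ± 116 CPM in WT GC libraries (-1.65, SE 0.08). Spib (-0.89), Irf8 (-0.80) and Bcl6 (-0.58) were lower by less. With upper-quartile scaling Bcl6 was not called (-0.17, edgeR adjusted p = 0.145), the median over all genes was 0.38, against -0.03 with TMM (and 0.11 with median-of-ratios scaling), and the split of calls was 7486 higher and 4802 lower, against 6211 higher and 6245 lower with TMM. Under that scaling the other 8 kept their direction and their call. Bcl6 lay below the median over all genes under both scalings. A change of scaling shifts Bcl6 and the median alike, so this was fixed in advance and does not test the difference.

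**Figure D4:**
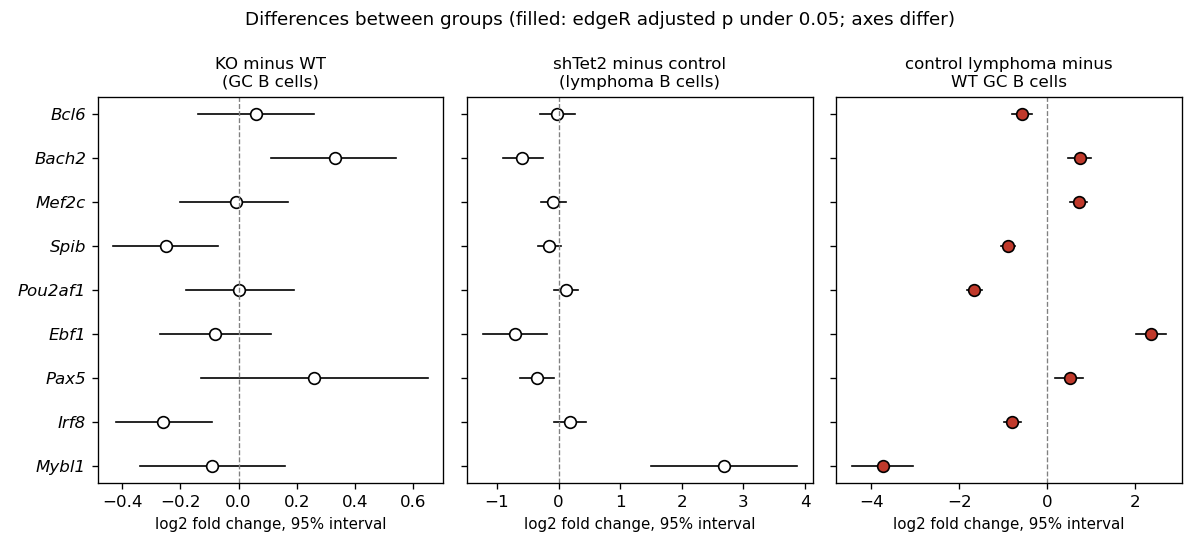
Log2 fold changes of the 9 tested members with 95% intervals in 3 comparisons, the first-named group minus the second; filled points have an edgeR adjusted p under 0.05 and the 3 axes differ in range. No point is filled for KO minus WT or shTet2 minus control, and all 9 are filled for control lymphoma minus WT GC B cells, with Mybl1 at -3.74 and Ebf1 at 2.37.

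The genes around the members also differed widely between control lymphoma and WT GC cells, and so did markers of other cell types. The T-cell markers summed to 26.4 to 54.2 CPM in control lymphoma and 110 to 138 CPM in WT GC libraries, yet 8 of 9 were higher in lymphoma cells and Lck alone was lower (-2.55). The 5 NK-cell markers, all called as higher, summed to 7.10 to 9.80 CPM in control lymphoma and 1.47 to 1.94 CPM in WT GC libraries. Of 16 tested myeloid markers 7 were higher and none lower, and of 5 tested plasmacytoid dendritic cell markers 4 were higher and 1 lower. The part of these cells in the differences that follow was not tested. Of 13 GC marker genes 11 were lower and none higher in lymphoma cells, with a median log2 difference of -4.21 against -0.03 over all genes. Fas, a death receptor, averaged 4.56 ± 1.05 CPM in control lymphoma and 82.9 ± 4.85 CPM in WT GC libraries (SD, n = 5 and 3). Of 22 BCL6-repressed genes 14 were higher and 5 lower, and Irf4, a factor of plasma cell formation, averaged 215 ± 10 CPM in control lymphoma and 65.1 ± 2.13 CPM in WT GC libraries. Of 28 other B-cell factors 19 were higher and 6 lower, with Foxp1 at 717 ± 55.4 CPM in control lymphoma and 119 ± 7.24 CPM in WT GC libraries.

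Of the paralogs 10 were higher and 6 lower of 18, with Mybl2 at 2.83 ± 0.742 CPM in control lymphoma and 57.9 ± 5.06 CPM in WT GC libraries. Of 22 corepressor genes 8 were higher and 10 lower, and Hdac3, whose product acts with BCL6, averaged 20.1 ± 0.777 CPM in control lymphoma and 94.1 ± 5.88 CPM in WT GC libraries. Of 21 PAX5 and EBF1 targets 8 were higher and 10 lower, with Cd24a (-1.73), Cr2 (1.94) and Cd55 (2.73) first by p. Of 12 plasma cell genes 3 were higher and 7 lower.

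The genes whose 4 group means lay closest to those of Bcl6, among 7902 genes with a mean of at least 10 CPM, were Kat2a, Il17ra and Fam53a. Their root mean square distances on the log2 scale, after centring each gene on its own mean, were 0.00701, 0.0153 and 0.017. Among the members Irf8 (0.136) and Spib (0.162) were nearest to Bcl6 by this measure, and Mybl1 (1.41) was farthest. The points are 4 group means that share scaling and table, so this is a description.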

How the data were processed

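RNA was extracted with Trizol and RNeasy and made into stranded TruSeq mRNA libraries, per the labels. STAR 2.3.0e and the build GRCm38.p3 are named in the submitters' processing notes. The values the authors deposited are raw counts: per the file headers, featureCounts 1.5.1 counted reads over GENCODE exons, summed by gene name, with no strand, paired-end or multi-overlap option.

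Members and gene lists were chosen with earlier results of these data known. All 10 members are named, with up to 3 called genes per list and comparison by smallest p, or the 1 with the smallest p where none passed, of which some are left out. Genes with a pattern like Bcl6 were ranked with an offset of 0.5 CPM. Each comparison was fitted on all genes with edgeR 4.0.16 in R 4.3.3 (TMM scaling, filterByExpr with a minimum count of 10, robust quasi-likelihood test, Benjamini-Hochberg adjustment, adjusted p under 0.05). Within each table, CPM used the factors of that table's own fit, and 1 constant from TMM over the 14 libraries joined the tables. Intervals are at 95%. Alternatives were other scalings and filters, removal of structural RNA rows (11 of 22 listed rows were found), DESeq2 1.42.0, limma-voom 3.58.1, a replicate block, other sets of samples in the model and leaving out each library. The fits were tested on simulated data. No 2 replicates agreed within counting noise (chi-square per gene of at least 12). The gene Jchain was matched through an older symbol, Igj. A few list genes are not reported here, and lists are counted without them.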

Additional observations from a re-analysis of the deposited data

Results flagged for a closer look

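Spib in KO replicate 4 (680 CPM) stood apart from the other KO libraries, of which the nearest had 632 CPM. It was the only such library among 18 combinations of member and group tested, and chance gives about 1 in 20. The log2 effect of the lymphoma comparison differed from that of the GC B-cell comparison for Bach2 (-0.94, edgeR adjusted p = 0.00618) and for Mybl1 (2.73, edgeR adjusted p = 0.00599). For Bach2, 4 of 4 KO libraries lay above the WT libraries, as in 7.65% of all genes, though the closest pair was 232 and 231 CPM. Its shTet2 libraries, 2 of 2, lay below the controls, as in 9.75% of all genes. For Mybl1, 2 of 2 shTet2 libraries lay above the controls, as in 11.5% of all genes. These are the same values that gave the calls, so they add no support. Both calls were lost without shTet2 replicate 2.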

How the results depend on the processing

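Of 9 tested members, the number called between KO and WT GC B cells was 0, and was 3 with DESeq2, 1 with no filter on low counts and 0 to 1 when each library was left out. Between shTet2 and control lymphoma cells it was 0, and was 3 with DESeq2, 1 with limma-voom, 1 with no filter, 3 in 1 model of all 4 groups and 0 to 5 when each library was left out. For the difference between effects it was 2, and was 3 with DESeq2 (Irf8 added, DESeq2 adjusted p = 0.0499), 2 in each of the other fits of all libraries and 0 to 5 when each library was left out. For control lymphoma against WT GC cells it was 9 in every fit except that with upper-quartile scaling (8). The order of levels was the same in all 40 places with median-of-ratios scaling. Scaling moves all genes of a library alike, so it could hardly change that order and does not test it. Small log2 fold changes turned sign in some fits. Between KO and WT cells, Pou2af1 was -0.01 with upper-quartile scaling and -0.00 with a filter at 1 CPM, and Mef2c was 0.04 in 1 model of all 4 groups. Between shTet2 and control cells, Bcl6 was 0.01 with no filter and 0.00 in 1 model of all 4 groups. When each library was left out, ranges that crossed 0 between KO and WT cells were -0.04 to 0.14 for Bcl6, -0.06 to 0.04 for Mef2c, -0.05 to 0.07 for Pou2af1 and -0.22 to 0.05 for Mybl1. Between shTet2 and control cells they were -0.29 to 0.21 for Bcl6, -0.20 to 0.01 for Mef2c and -0.07 to 0.40 for Irf8, and for the difference between effects -0.42 to 0.12 for Bcl6 and -0.05 to 0.14 for Spib. The causes were not tested.

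Replicate numbers are shared between groups, and the labels do not say whether they pair the libraries. Correlations of same-numbered libraries, after taking off the group means, were -0.08 to 0.04. With so few libraries per group these do not settle it. With the replicate number as a block, 1 member was called between shTet2 and control cells (Mybl1, 3.72, edgeR adjusted p = 0.0368), and between KO and WT cells Pou2af1 was -0.03, Ebf1 0.01 and Mybl1 0.04. Over all genes that block called 570 between KO and WT cells and 4 between shTet2 and control cells, against 883 and 330 without it. In the lymphoma comparison DESeq2 called 593 genes, no filter 782 and 1 model of all 4 groups 840. In the GC comparison DESeq2 called 1266 genes and no filter 1365. For the difference between effects DESeq2 called 1198 genes, against 771 with edgeR.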
